A study of Oryctolagus cuniculus with 24 samples.

Results

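The genes described here act in G2 and mitosis, the last stages of the cell cycle, in which a cell that has copied its DNA condenses its chromosomes and divides. A list of 54 genes was taken by symbol, and 36 of them had a probe on the array, among 28912 genes measured. The other 18, among them CCNA2, TOP2A, BIRC5 and CENPF, had no probe under their symbol by the naming used here. The 36 genes were measured by 67 probes, 21 of them by 1 probe and 15 by more than 1.

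PBMCs, the mononuclear cells of blood and mainly lymphocytes and monocytes, came from 4 adult females of the New Zealand White rabbit breed, which carry the numbers 1, 2, 4 and 5, and were cultured in medium with fetal bovine serum. Cells were mock-stimulated with buffer, stimulated with LPS (lipopolysaccharide, a bacterial cell wall component) at 1 µg/mL, or stimulated with PMA-Ionomycin. The last is a mixture of PMA at 10 ng/mL, a phorbol ester and activator of protein kinase C, with ionomycin, a calcium ionophore, at 1 µg/mL. They were harvested after 4 h (T4) or 24 h (T24), which gave 6 groups with 1 sample of each rabbit. RNA of each of the 24 samples was hybridised to a one-colour array of 60-base probes.

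Mitosis is entered when the kinase CDK1, bound to a B-type cyclin, becomes active. Aurora, Polo and NEK kinases then drive the assembly of the spindle, kinetochores such as the NDC80 complex hold chromosomes to its microtubules, condensin packs the chromosomes, and the spindle checkpoint (MAD2L1, BUB1, TTK) delays the anaphase-promoting complex until every chromosome is attached. Most of these transcripts are abundant only in dividing cells, and resting blood lymphocytes express little of them. Resting lymphocytes can be driven into the cell cycle by PMA with a calcium ionophore.

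The probes below measured CDK1 and CCNB1, whose proteins form the kinase that starts mitosis, NCAPG, which like them rose most at T24, and MKI67, the standard marker of cycling cells. They are shown 5′ to 3′ with no capitals where nothing is marked, with positions on the rabbit build oryCun2 that the file headers name. A position wider than the probe spans bases that the probe does not hold. No annotation of exons or UTRs on this build was used here.

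CDK1, probe 1, chr18:25387782-25387841, minus strand: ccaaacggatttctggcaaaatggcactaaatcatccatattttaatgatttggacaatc
CDK1, probe 2, chr18:25387842-25389573, minus strand: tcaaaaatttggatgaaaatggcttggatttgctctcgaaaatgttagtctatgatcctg
CDK1, probe 3, chr18:25389574-25389633, minus strand: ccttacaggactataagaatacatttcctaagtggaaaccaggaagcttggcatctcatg
CCNB1, probe 1, chr11:85370994-85371158, plus strand: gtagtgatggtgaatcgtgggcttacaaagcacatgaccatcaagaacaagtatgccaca
CCNB1, probe 2, chr11:85371159-85371218, plus strand: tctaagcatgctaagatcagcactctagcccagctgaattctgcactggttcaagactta
NCAPG, chr2:8400479-8402362, plus strand: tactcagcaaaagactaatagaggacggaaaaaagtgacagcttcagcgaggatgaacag
MKI67, chr4:28803243-28803302, plus strand: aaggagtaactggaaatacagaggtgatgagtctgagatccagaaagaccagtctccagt

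The 3 CDK1 probes lie side by side without shared bases, and their differences between PMA-Ionomycin and mock at T24 were 4.65 to 4.75 on the log2 scale. The 2 CCNB1 probes gave 4.27 and 4.31. UBE2C had 5 probes that are no such separate measurements, since each is moved along the transcript by a single base. They are printed with the 56 bases that all 5 share in capitals, and the files give them no position.

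UBE2C, probe 1: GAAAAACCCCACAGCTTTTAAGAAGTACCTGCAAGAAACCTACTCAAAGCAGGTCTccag
UBE2C, probe 2: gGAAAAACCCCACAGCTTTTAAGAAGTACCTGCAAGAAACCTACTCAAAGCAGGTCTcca
UBE2C, probe 3: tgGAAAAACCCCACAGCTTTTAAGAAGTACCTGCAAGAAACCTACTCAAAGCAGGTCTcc
UBE2C, probe 4: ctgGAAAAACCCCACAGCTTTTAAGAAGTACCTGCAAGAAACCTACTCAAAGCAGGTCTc
UBE2C, probe 5: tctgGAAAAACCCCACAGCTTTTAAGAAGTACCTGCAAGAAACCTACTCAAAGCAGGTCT

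A level here is the log2 signal of a gene, averaged over its probes, after the median of its array was subtracted. A level compares samples for a gene, and not different genes, because probes differ in brightness. A gene was called DE (differentially expressed) when its p from limma was under 0.05 after Benjamini-Hochberg adjustment over the 28912 genes. PBMCs were measured in bulk, so that fewer cells of a type and less RNA per cell cannot be told apart.

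The mean level of the 36 genes was highest in PMA-Ionomycin samples of T24, where it was 2.50 ± 0.27 (SD, n = 4 rabbits). It was 1.76 ± 0.19 in mock samples of T4, 1.56 ± 0.19 after LPS at T4 and 0.96 ± 0.23 after PMA-Ionomycin at T4. At T24 it was 0.42 ± 0.21 in mock samples and 0.69 ± 0.30 after LPS. The PMA-Ionomycin samples of T24, at 2.14 to 2.72, lay above all other samples, and those of T4, at 0.62 to 1.16, lay below all mock samples of T4, at 1.51 to 1.91. Rabbit 2 had the lowest mean level in each of the 6 groups.

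**Figure D1:**
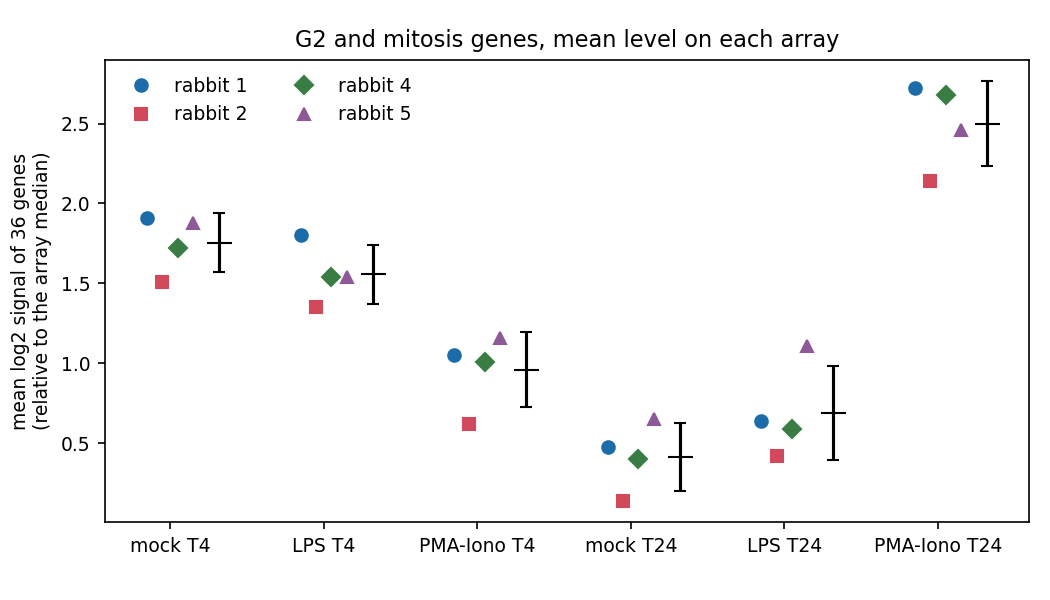
Mean level of the 36 genes on each array (log2, array median at 0), by group. Symbols are rabbits, and the bar beside them is the mean with the SD over 4 rabbits. The 4 PMA-Ionomycin samples of T24 lie between 2.14 and 2.72, and the mock samples of T24 between 0.14 and 0.65.

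At T24, PMA-Ionomycin was compared with mock to ask which genes respond to strong lymphocyte stimulation. Of the 36 genes, 32 were up-regulated, 2 were down-regulated (LBR and G2E3) and 2 were not called (CDC25C and PSRC1). Over all genes measured, 22.1% were called higher in this comparison and 11.5% lower. The median log2 fold change of the 36 genes was 1.93, against 0.03 over all genes. The share of calls that are rises depends on the normalization: over all genes there were 6398 higher and 3328 lower calls, and 4988 and 4461 after quantile normalization, where 31 of the 36 genes were still called higher and 2 lower. From the processed signal, each array scaled by its 75th percentile, lower calls led over all genes, with 4685 higher and 5437 lower.

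Of CDK1, its cyclins and its activators, 3 of the 4 genes measured rose at T24. CDK1, the kinase that starts mitosis, had levels of 1.35, 0.67, 1.17 and 1.13 in mock samples of rabbits 1, 2, 4 and 5 at T24, and of 6.11, 5.53, 5.99 and 5.54 after PMA-Ionomycin. The groups were far from overlapping. The log2 fold change was 4.71 (SE 0.28, a 26.2-fold rise, adjusted p = 7.38e-12), the largest of the 36.

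CCNB1, the B-type cyclin that activates CDK1, had 1.82, 0.97, 1.51 and 1.94 in mock samples and 6.33, 5.45, 6.01 and 5.62 after PMA-Ionomycin. It rose 19.6-fold (log2 4.29, SE 0.33, adjusted p = 3.09e-10) with no overlap. CCNB2, the other B-type cyclin measured (chr17:13290115-13290557), had -0.07, -0.73, -0.45 and 0.59 in mock samples and 1.89, 1.08, 1.73 and 1.41 after PMA-Ionomycin. It rose by 1.69 (SE 0.32, adjusted p = 0.000143), without overlap. CDC25C, the phosphatase that removes the inhibitory phosphates of CDK1, was well above background on none of the 24 arrays, and its level is therefore not known.

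All 6 mitotic kinases listed were measured, and all rose at T24. TTK (chr12:66971940-66974277), a kinase of the spindle checkpoint, was well above background on no array of mock T24, with levels of -0.57, -0.95, -0.49 and -0.91. After PMA-Ionomycin it had 2.04, 1.57, 1.93 and 1.68, at least 5.74-fold higher (adjusted p = 4.5e-12). Such a bound sets the bright group against the higher of the dim signal and the lowest signal that was well above background on the array. AURKB (chr19:11056732-11056920), the Aurora kinase of the chromosomal passenger complex, had 0.46, 0.18, 0.43 and 0.80 in mock samples and 3.80, 2.73, 3.84 and 3.48 after PMA-Ionomycin.

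The rise of AURKB was 7.97-fold (log2 95% interval 2.44 to 3.55, adjusted p = 4.38e-09), without overlap. AURKA, the Aurora kinase of the spindle poles, rose by 1.61 (SE 0.31), PLK1, the Polo kinase, by 1.17 (SE 0.20), NEK2 by 1.91 (SE 0.25) and BUB1 by 2.71 (SE 0.28). The AURKA probe is described in the files as similar to aurora kinase B, while its gene number is that of AURKA in the RefSeq table. The probes of AURKA and AURKB share no run of over 7 bases.

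Among genes of the checkpoint, the anaphase-promoting complex and the passenger complex, 5 of 6 rose and G2E3 fell. MAD2L1 (chr15:95191399-95192248), the checkpoint protein that holds back CDC20, had 0.11, -0.30, 0.10 and -0.13 in mock samples and 3.62, 3.15, 3.50 and 3.28 after PMA-Ionomycin. The groups were separate, and the differences within rabbits were 3.40 to 3.50 (log2 fold change 3.44, SE 0.19, adjusted p = 2.6e-12). UBE2C, the ubiquitin-conjugating enzyme of the anaphase-promoting complex, had 1.46, 0.61, 1.08 and 1.63 in mock samples and 5.28, 4.36, 5.13 and 4.91 after PMA-Ionomycin. It rose 13.3-fold (log2 3.73, SE 0.30, adjusted p = 9.38e-10), again without overlap. CDC20, which activates the complex, rose by 3.07 (SE 0.38).

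All 4 centromere and kinetochore genes measured rose, although CENPE, a kinetochore motor, was well above background on 2 of the 24 arrays, both of PMA-Ionomycin T24, and rose at least 1.24-fold. NUF2 (chr13:29605748-29611009) and NDC80 (chr9:59441948-59442068) are partners in the complex that binds microtubules. NUF2 had -0.21, -0.56, -0.09 and -0.36 in mock samples and 3.94, 3.22, 3.69 and 3.36 after PMA-Ionomycin, a 14.5-fold rise (adjusted p = 2.82e-12). NDC80 had 1.81, 1.75, 1.89 and 1.52 in mock samples and 5.55, 4.81, 5.32 and 4.91 after PMA-Ionomycin, a 10.6-fold rise (adjusted p = 1.34e-10). Neither gene had overlapping groups. HJURP, the chaperone of centromeric histone, rose at least 2.74-fold.

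Of the 4 spindle genes measured, 3 were called higher, and PSRC1 was well above background on only 2 of 24 arrays. All 3 kinesins and both cytokinesis genes measured were called higher. NUSAP1 (chr17:30737716-30739195), which bundles spindle microtubules, had 1.00, 0.90, 0.88 and 0.30 in mock samples and 3.09, 2.67, 2.87 and 2.28 after PMA-Ionomycin (log2 fold change 1.95, SE 0.21, adjusted p = 6.73e-08). Rabbit 5 was lowest in both groups of NUSAP1, which did not overlap. TPX2 (chr4:7451478-7451537), an activator of AURKA, had -0.61, -0.97, -0.45 and -0.17 in mock samples and 1.30, 0.71, 1.11 and 0.93 after PMA-Ionomycin, and rose by 1.56 (SE 0.21, adjusted p = 2.08e-06). CKAP5 (chr1:186103983-186104042), a microtubule polymerase that all cells use, had 1.55, 1.56, 1.00 and 2.72 in mock samples and 2.57, 2.07, 3.15 and 3.38 after PMA-Ionomycin. Its groups overlapped through the mock sample of rabbit 5, and the log2 fold change was 1.09 (SE 0.42, adjusted p = 0.048). It was no longer called after quantile normalization, from the processed signal, after normexp, in the deposited table, with the slide as a block, with a variance trend and robust eBayes, or without rabbit 1 or rabbit 4.

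KIF11 (chr18:40456440-40457851), the kinesin that pushes spindle poles apart, had -0.56, -1.03, -0.27 and -0.56 in mock samples and 2.09, 1.70, 1.79 and 1.86 after PMA-Ionomycin, and rose by 2.47 (SE 0.18, adjusted p = 1.34e-10). KIF20B (chr18:37754152-37758418), a mitotic kinesin, had -0.05, -0.28, -0.03 and -0.02 in mock samples and 2.07, 1.67, 1.93 and 1.80 after PMA-Ionomycin, and rose by 1.96 (SE 0.14, adjusted p = 1.37e-10). In mock T24, KIF20B was well above background on 1 of 4 arrays, and KIF11, TPX2 and NEK2 on 2 of 4, so that their mock levels are measured only in part. The 2 probes of KIF20B gave 1.53 and 2.39. Neither KIF11 nor KIF20B had overlapping groups, and KIF23, a kinesin of the central spindle, rose at least 3.39-fold. Of the cytokinesis genes, ANLN (chr10:19941375-19944683), a scaffold of the contractile ring, had -0.81, -1.18, -0.76 and -0.84 in mock samples, on no array well above background, and 0.97, 0.67, 0.52 and 0.69 after PMA-Ionomycin. It rose at least 2.90-fold (adjusted p = 2.3e-08). ECT2, the exchange factor that activates RhoA at the cleavage plane, had 0.34, 0.25, 0.24 and 0.49 in mock samples and 1.42, 0.99, 1.80 and 1.28 after PMA-Ionomycin. It rose by 1.04 (SE 0.14, adjusted p = 2.93e-06) without overlap, but its 2 probes, shown here because they disagree, gave 1.62 and 0.47.

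ECT2, probe 1, chr14:67785368-67789657, plus strand: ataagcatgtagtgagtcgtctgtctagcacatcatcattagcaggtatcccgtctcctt
ECT2, probe 2, chr14:67789672-67789731, plus strand: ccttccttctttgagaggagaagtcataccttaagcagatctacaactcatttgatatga

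When ECT2 was represented by probe 2 alone, the brighter, it was called in neither direction at T24. Its calls at T4, between times, against LPS and against mock T4 were lost by that probe as well. In the counts below ECT2 stands by the mean of its probes. The condensin, chromosome and chromatin genes all rose, 6 of 6. CDCA2 changed least of these, by 0.67, and its levels are measured only in part. It was well above background on 0 of 4 arrays of mock T24 and of PMA-Ionomycin T4, and on 3 of 4 of PMA-Ionomycin T24. NCAPG, a condensin subunit, had 0.43, -0.12, 0.33 and 0.36 in mock samples and 5.07, 4.29, 4.72 and 4.43 after PMA-Ionomycin. The groups did not overlap, with a 20.8-fold rise (log2 4.38, SE 0.25, adjusted p = 3.28e-12).

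SMC4 (chr14:54839757-54839816), a core condensin ATPase, had 2.83, 2.94, 3.22 and 2.91 in mock samples and 6.13, 5.61, 5.76 and 5.48 after PMA-Ionomycin, a 6.83-fold rise (adjusted p = 1.13e-10). MKI67, whose protein Ki-67 coats mitotic chromosomes and is used to stain cycling cells, had 1.02, 0.35, 1.13 and 1.64 in mock samples and 5.00, 4.24, 5.02 and 4.52 after PMA-Ionomycin. Both genes were higher in every stimulated sample than in any mock sample, and MKI67 rose 12.7-fold (log2 3.66, SE 0.29, adjusted p = 6.06e-10). HMGB2, a DNA-bending chromatin protein, rose by 2.31 (SE 0.24) and NCAPD2, another condensin subunit, by 1.89 (SE 0.30).

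**Figure D2:**
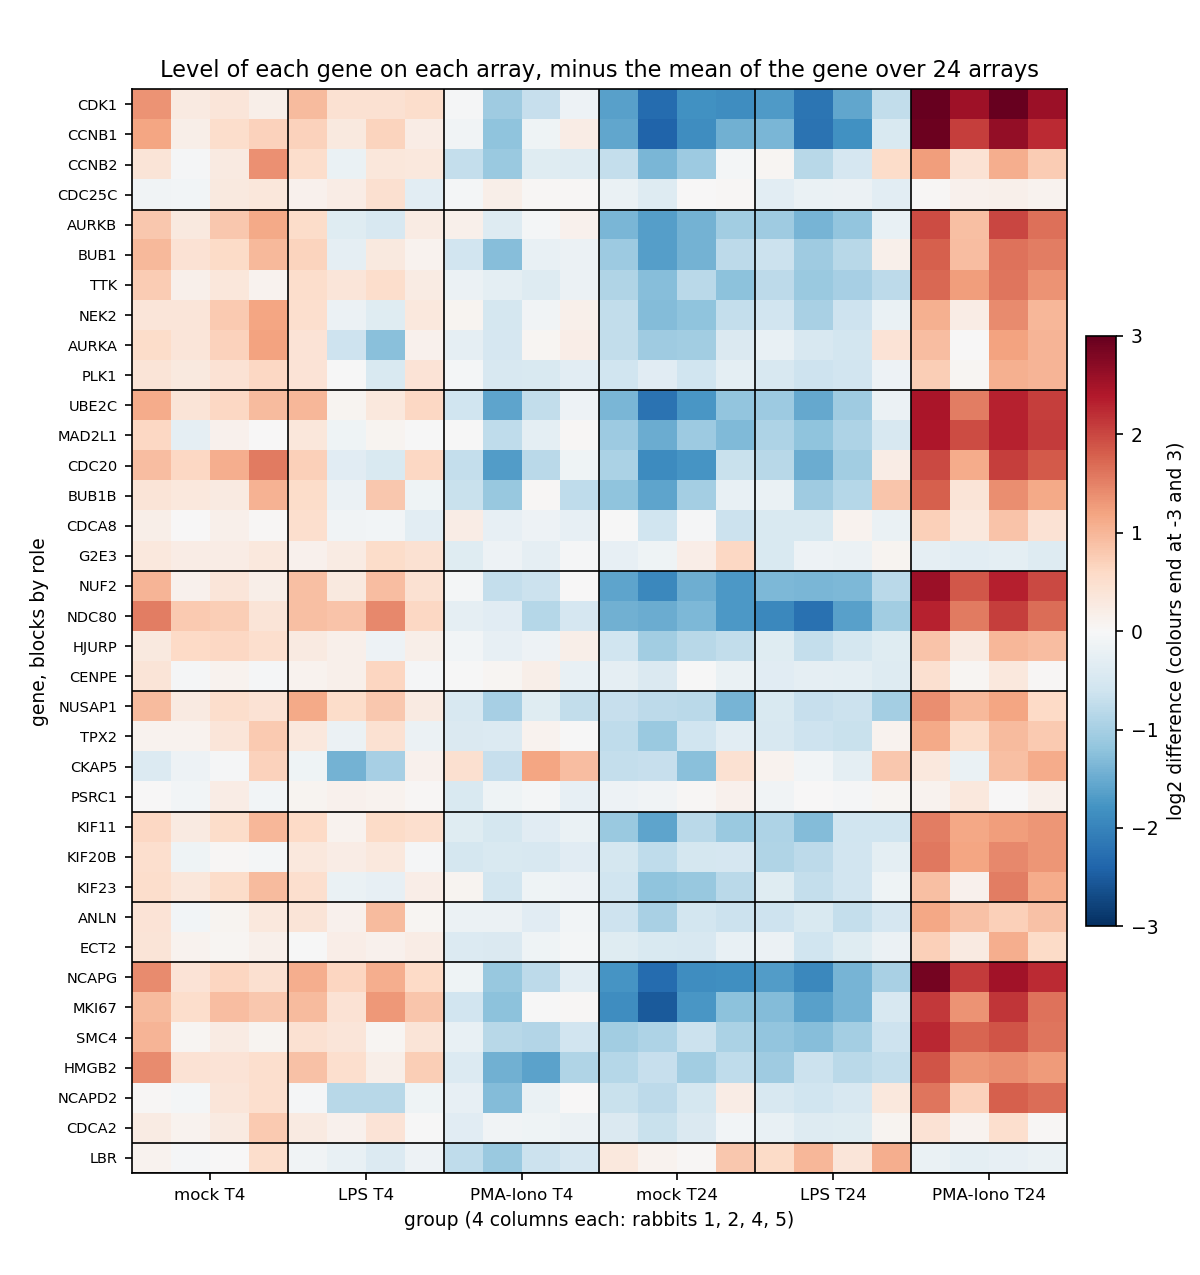
Level of each of the 36 genes (rows, in blocks by role) on each of the 24 arrays (columns, 4 rabbits a group), as the log2 difference from the mean of the gene. Red is above and blue below that mean. The PMA-Ionomycin T24 columns are red for most genes and the mock T24 and LPS T24 columns blue, while LBR and G2E3 do not follow this pattern.

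LBR and G2E3 were the genes called lower at T24. LBR, a lamin receptor of the inner nuclear membrane that is also present in resting cells, had 1.97, 1.75, 1.68 and 2.47 in mock samples and 1.46, 1.37, 1.40 and 1.45 after PMA-Ionomycin. Every stimulated sample was lower than every mock sample, and the log2 fold change between the group means was -0.54 (SE 0.18, adjusted p = 0.0186). The call was lost without rabbit 1 and without rabbit 5. At T4 LBR had 1.76, 1.61, 1.67 and 2.18 in mock samples and 0.90, 0.54, 1.00 and 1.14 after PMA-Ionomycin, a fall of 0.91 (SE 0.18, adjusted p = 0.000391), again without overlap. Its probe is printed as that of the gene that fell furthest at T24.

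LBR, chr16:47402986-47403142, minus strand: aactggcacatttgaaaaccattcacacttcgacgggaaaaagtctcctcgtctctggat

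G2E3 (chr17:50516278-50547923), a ubiquitin ligase named for its level in G2, had 1.20, 1.32, 1.65 and 2.07 in mock samples and 1.18, 1.14, 1.15 and 1.06 after PMA-Ionomycin. All stimulated samples lay below all mock samples, though rabbit 1 differed by 0.03. The log2 fold change was -0.43 (SE 0.15, adjusted p = 0.0289), and the 5 probes gave -0.71 to -0.12. The call was lost when the brightest probe alone was used, when the arrays of the comparison alone were fitted, and without rabbit 2, rabbit 4 or rabbit 5.

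At T4 the same comparison ran in the opposite direction. Of the 36 genes, 26 were down-regulated by PMA-Ionomycin and 0 up-regulated, where 9.35% of all genes were called lower and 13.5% higher. The median log2 fold change of the 36 was -0.78, against 0.05 over all genes. Over all genes there were 3890 higher and 2704 lower calls, or 3301 and 3714 from the processed signal, each array scaled by its 75th percentile, by which 30 of the 36 genes were lower and 0 higher, with a median of -1.26 against -0.16 over all genes. The count fell to 17 without rabbit 4 and was 18 without rabbit 1, and 11 of the genes fell by at least 1 on the log2 scale.

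At least 1 gene of each role was called lower at T4. CDC20 had 2.63, 2.34, 2.79 and 3.26 in mock samples of rabbits 1, 2, 4 and 5, and 1.00, 0.03, 0.91 and 1.59 after PMA-Ionomycin. Its groups did not overlap, and the log2 fold change of -1.87 (SE 0.38, adjusted p = 0.00054) was the largest fall of the 36. HMGB2 had 6.36, 5.37, 5.36 and 5.45 in mock samples and 4.54, 3.50, 3.33 and 4.05 after PMA-Ionomycin (log2 fold change -1.78, SE 0.24, adjusted p = 3.94e-06). The HMGB2 probe is listed in the files under several accessions.

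UBE2C fell by 1.53 (SE 0.30), NDC80 by 1.35 (SE 0.25), NCAPG by 1.32 (SE 0.25), MKI67 by 1.25 (SE 0.29) and NUSAP1 by 1.19 (SE 0.21). CDK1 had 4.32, 3.25, 3.35 and 3.17 in mock samples and 2.94, 1.92, 2.29 and 2.82 after PMA-Ionomycin. Its groups were separate by a small margin, and it fell by 1.03 (SE 0.28, adjusted p = 0.00839), a call lost without rabbit 4. CCNB1, with an adjusted p of 0.037, had a range of 2.18 to 3.59 after PMA-Ionomycin that overlapped that of 3.56 to 4.57 in mock samples, and its call was lost with the slide as a block and without rabbit 1, rabbit 2 or rabbit 4. MAD2L1 (-0.38, adjusted p = 0.194, or 0.043 with the rabbit as a block), CDCA8 (-0.20, adjusted p = 0.585) and CKAP5 (0.45, adjusted p = 0.588) were among the 10 genes not called. AURKA (-0.83), NCAPD2 (-0.65) and TPX2 (-0.52) were called with the block, with adjusted p of 0.00958, 0.0123 and 0.0333.

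**Figure D3:**
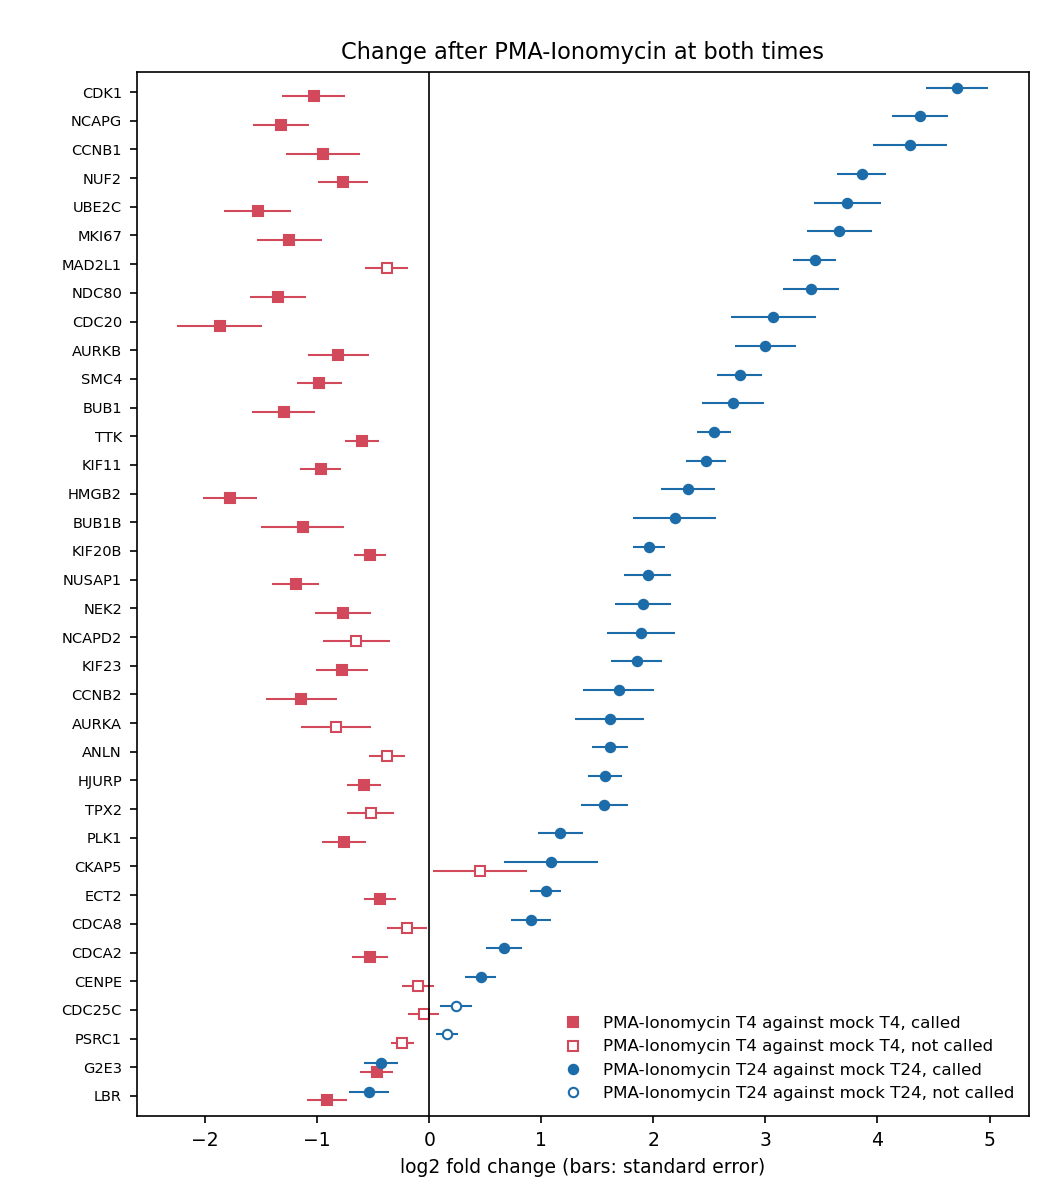
Log2 fold change of each gene after PMA-Ionomycin against mock at T4 (squares) and at T24 (circles), with standard errors. Filled symbols were called. Of 36 genes, 24 were called lower at T4 and higher at T24, and LBR and G2E3 were called lower at both times.

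The change between times was tested as the interaction of PMA-Ionomycin and time, which asks whether the difference from mock differs between T24 and T4. It was positive and called for 31 of the 36 genes, where 14.4% of all genes were called positive. Interactions of 5.74 (SE 0.40) for CDK1, 5.70 (SE 0.35) for NCAPG, 5.26 (SE 0.43) for UBE2C and 5.25 (SE 0.46) for CCNB1 were the largest. LBR, G2E3, CKAP5, CDC25C and PSRC1 were not called. By direction, 24 genes were called lower at T4 and higher at T24, 8 were called higher at T24 and not called at T4, 2 were called lower at both times and 2 at neither.

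The mock samples themselves changed with time in culture. From T4 to T24, 28 of the 36 genes fell and 0 rose, where 5.14% of all genes were called lower, with a median log2 change of -1.38 against -0.06 over all genes. From the processed signal these medians were -2.33 and -0.12. NCAPG had 3.62, 2.60, 2.84 and 2.67 in mock samples of T4 and 0.43, -0.12, 0.33 and 0.36 at T24, a fall of 2.68 (SE 0.25, adjusted p = 8.36e-08) with no overlap. MKI67 had 3.82, 3.42, 3.81 and 3.69 at T4, and its levels of 0.35 to 1.64 at T24 gave a fall of 2.65 (SE 0.29). CCNB1 fell by 2.47 (SE 0.33), CDK1 by 2.44 (SE 0.28) and UBE2C by 2.40 (SE 0.30). Within PMA-Ionomycin samples, 32 of the 36 genes were called higher at T24 than at T4, where 20.3% of all genes were.

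Because the mock level fell, PMA-Ionomycin T24 was also set against mock T4, a comparison chosen after the data were seen, in which stimulation and culture time cannot be told apart. It shares its samples with the comparisons above. Of the 36 genes, 19 were called higher than in mock T4 and G2E3 was called lower, where 22.7% of all genes were called higher and 9.38% lower. After quantile normalization 9 of the 36 genes were called higher and 2 lower, where 17.0% of all genes were called higher and 13.5% lower, so that the share of the 36 genes lies near the background under that setting. CDK1 was 2.27 higher on the log2 scale (SE 0.28, adjusted p = 6.3e-07), MAD2L1 2.08 (SE 0.19), CCNB1 1.83 (SE 0.33), NUF2 1.76 (SE 0.22), NCAPG 1.69 (SE 0.25) and SMC4 1.52 (SE 0.20). MKI67 was 1.01 higher (SE 0.29), a call lost after quantile normalization, after normexp, from the processed signal and without rabbit 1 or rabbit 4.

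Another 13 genes were called higher than in mock T24 and not called higher than in mock T4. AURKA had 2.13, 1.93, 2.25 and 2.77 in mock T4, 0.83, 0.51, 0.52 and 1.14 in mock T24, and 2.49, 1.57, 2.78 and 2.60 after PMA-Ionomycin at T24. The stimulated samples overlapped the mock T4 samples, with a log2 difference of 0.09 (SE 0.31, 95% interval -0.55 to 0.74). PLK1 (0.28, SE 0.20), CCNB2 (0.39, SE 0.32), NEK2 (0.24, SE 0.25), KIF23 (0.33, SE 0.23) and CDC20 (0.71, SE 0.38, adjusted p = 0.172) were in the same position, and of these CDC20 was called with the rabbit as a block (adjusted p = 0.0101), as were NUSAP1 (0.49, adjusted p = 0.00393) and TPX2 (0.53, adjusted p = 0.0227).

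**Figure D4:**
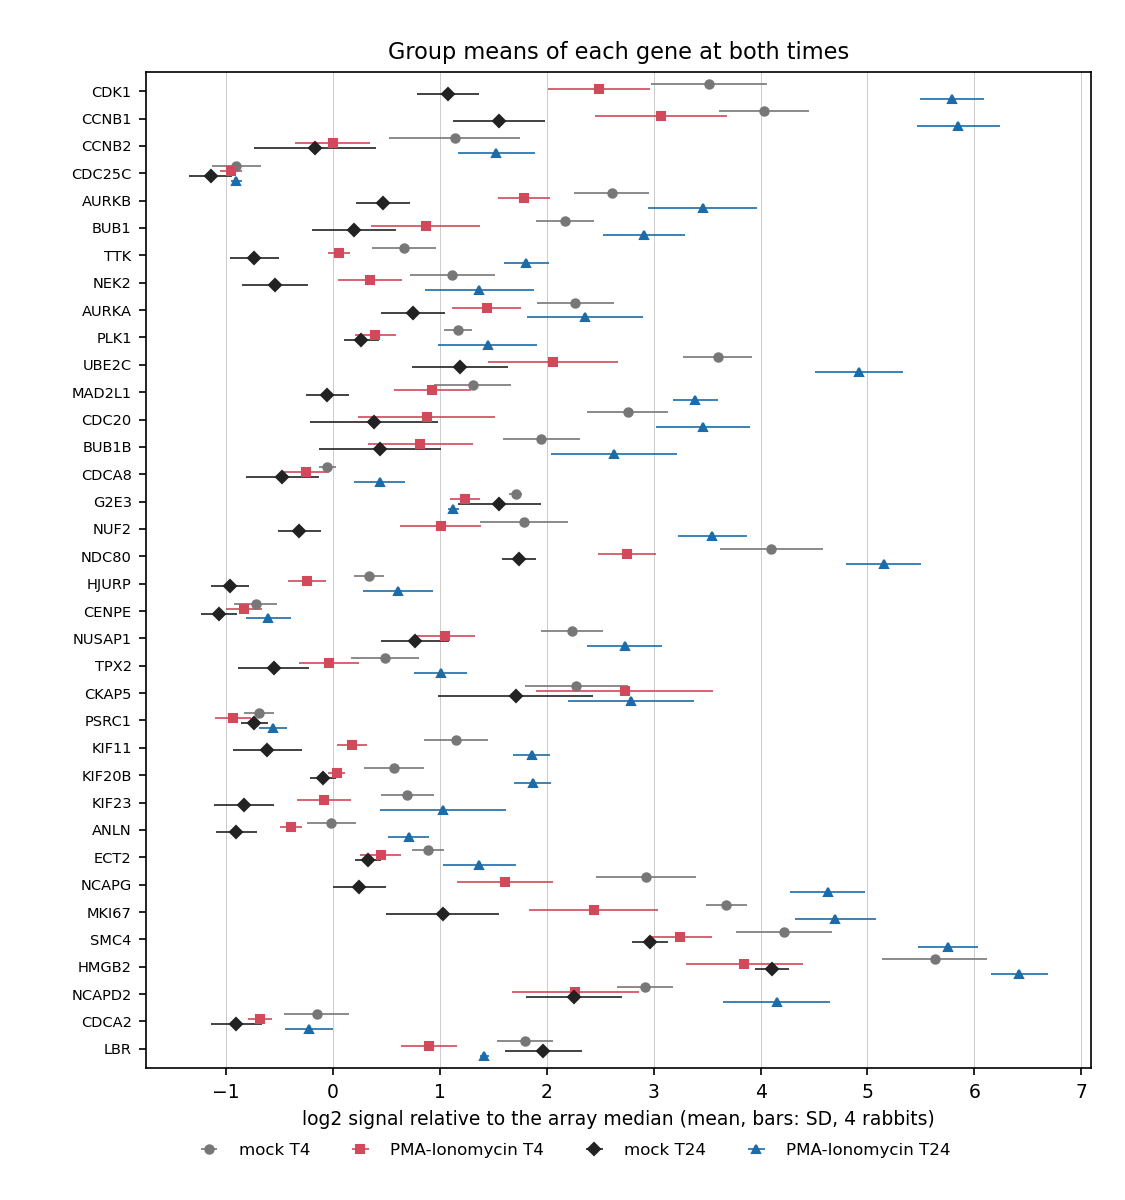
Mean log2 signal of each gene in mock and PMA-Ionomycin samples of both times, with the SD over 4 rabbits, in order of role. Levels compare groups within a row and not between genes. For AURKA the means of mock T4 and PMA-Ionomycin T24 are 2.27 and 2.36, while for CDK1 they are 3.52 and 5.79.

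LPS, which acts mainly on monocytes and B cells, was compared with mock in the same way. None of the 36 genes was called at T4, at T24 or in the interaction of LPS and time in the limma fit of group means, with 8 of the 36 genes at an unadjusted p under 0.05 at T4 and 7 at T24, where 4024 and 3137 of all 28912 genes were. Over all genes 1.02% were called at T4, 1.22% at T24 and 1.94% in the interaction, which is 296, 354 and 562 genes. These counts depend on single rabbits. Leaving out 1 rabbit gave 0 to 120 genes at T4, 86 to 615 at T24 and 7 to 402 in the interaction. The median log2 fold change of the 36 genes was -0.13 at T4 and 0.31 at T24, against 0.06 and -0.03 over all genes. These medians were -0.04 and 0.19 without rabbit 5, and -0.01 and 0.52 from the processed signal, with 0.22 and -0.07 over all genes. CDK1 changed by 0.35 at T24 (95% interval -0.23 to 0.94), with 1.28, 0.79, 1.42 and 2.24 in the 4 rabbits, of which that of rabbit 5 was the highest. NCAPG changed by 0.45 (95% interval -0.06 to 0.97) and MKI67 by 0.64 (95% interval 0.04 to 1.25, adjusted p = 0.41).

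With the rabbit as a block, which uses that each animal was in every group, 4 of the 36 genes were called lower after LPS at T4, where 4.25% of all genes were called and 3.95% called lower. AURKA had 1.98, 0.95, 0.31 and 1.71 after LPS, each lower than mock in the same rabbit, by 0.15 to 1.94 (log2 fold change -1.03, adjusted p = 0.0217 with the block and 0.101 without). CDC20 (-0.92), AURKB (-0.78) and NCAPD2 (-0.67) were the others, with adjusted p of 0.0223, 0.0232 and 0.0473 by the block. At T24 UBE2C alone of the 36 genes was called with the block, higher (0.66, adjusted p = 0.0377). Over all genes 2.61% were called and 1.45% called higher, so that 1 of 36 lies near the share over all genes. The interaction of LPS and time was then called positive for 9 genes, among them AURKA (1.64), CDC20 (1.45), AURKB (1.18) and BUB1 (1.17). Over all genes 5.77% were called in that interaction and 5.11% called positive. No alternative without the block called a gene for LPS at T4 or T24. In the same LPS comparison at T4 the mean of 10 monocyte markers was 2.61 in mock samples and 1.76 after LPS (1.47 to 2.08 over rabbits, against 1.86 and above in mock samples), with 2 of 10 called lower without the block. At T24 that mean was 4.45 in mock samples and 4.31 after LPS, with 1 marker higher and 1 lower. The part of these markers in the LPS results was not tested.

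Both stimuli were also compared directly. At T24, 31 of the 36 genes were higher after PMA-Ionomycin than after LPS and LBR was lower by 0.99 (SE 0.18, adjusted p = 7.15e-05), where 23.6% of all genes were called higher and 12.5% lower. CDK1 was 4.36 higher (SE 0.28), NCAPG 3.93 (SE 0.25) and NDC80 3.63 (SE 0.25). At T4, 19 of the 36 genes were lower after PMA-Ionomycin than after LPS, where 9.04% of all genes were, among them NDC80 (-1.45, SE 0.25) and NUSAP1 (-1.34, SE 0.21). That count was 12 without rabbit 4 and, with the rabbit as a block, 22, with 1 gene (CKAP5) called higher. The share of all genes called lower in this comparison was 15.2% after quantile normalization and 21.3% from the processed signal.

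**Figure D5:**
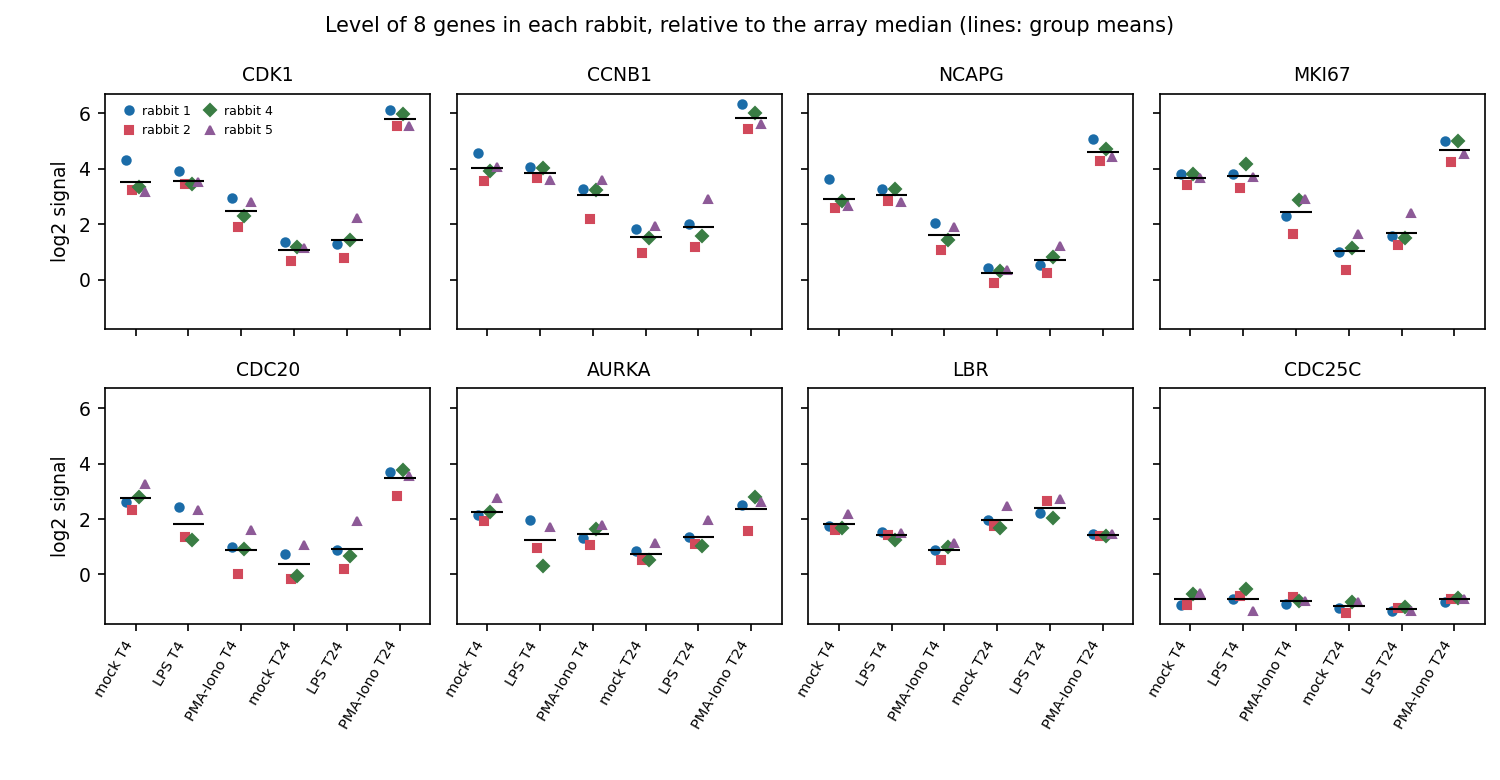
Level of 8 genes in each rabbit in the 6 groups, on the log2 scale with the array median at 0, with group means as lines. CDK1, CCNB1, NCAPG and MKI67 have their highest mean at PMA-Ionomycin T24 and their lowest at mock T24, AURKA has means of 2.27 at mock T4 and 2.36 at PMA-Ionomycin T24, LBR is lower after PMA-Ionomycin at both times, and CDC25C is not well above background on any array.

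Other cell cycle genes were listed for comparison. Over all genes, 22.1% were called higher and 11.5% lower after PMA-Ionomycin at T24, and 13.5% and 9.35% at T4. Of 34 further G2 and mitosis genes measured, 27 were higher and 0 lower at T24 after PMA-Ionomycin, with a median log2 fold change of 1.59, and NCAPG2 (3.90), MELK (3.28) and SPAG5 (3.17) rose most. At T4, 15 of them were lower and 1 higher. All 13 S phase genes measured were higher at T24 (median 3.05), led by MCM6 (4.16), a subunit of the replicative helicase, TYMS (3.78), which makes thymidylate, and TK1 (3.61), and 0 of them were called at T4, where their median was -0.09. Of 9 G1 cyclins, kinases and E2F factors, 6 were higher and 1 lower at T24, with CDK6 (1.25), CDK4 (1.22) and CCNE1 (0.98) showing the largest rises. Of 16 inhibitors and quiescence genes, 7 were lower and 2 higher at T24, and BTG2 (-2.38), BTG1 (-2.08) and CCNG2 (-1.69), which restrain proliferation, fell most. The 2 that rose were CDKN2C (1.22), a CDK inhibitor, and LIN9 (0.54). At T4, 8 of the 16 were lower, among them CDKN2D (-1.65) and RB1 (-1.28), and 2 were higher, CDKN1A (2.16) and E2F5 (0.38).

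Markers of blood cell types moved in the same comparisons. From mock to PMA-Ionomycin at T24, 6 of 10 monocyte markers measured were lower and 1 higher, and the mean level of this list was 3.56 to 4.81 in mock samples and 2.32 to 2.81 after PMA-Ionomycin. From mock T4, with a mean of 2.61, to mock T24, with a mean of 4.45, 7 of these 10 rose. The mean of 8 T cell markers was 0.32 to 0.80 in mock T24 and 0.37 to 0.55 after PMA-Ionomycin, with 2 of 8 lower and 1 higher. CD4, CD28 and CD247 were well above background on no array of PMA-Ionomycin T24, and CD28 also on none of mock T24. For 6 B cell markers the mean was 2.78 to 4.19 in mock T24 and 2.33 to 2.79 after PMA-Ionomycin, with 3 of 6 lower and 1 higher. At T4, where 26 of the 36 genes fell after PMA-Ionomycin, the B cell list went from 3.07 to 3.65 in mock samples to 2.03 to 2.60, without overlap, with 3 of its 6 markers lower and 2 higher. Of the 10 monocyte markers 3 were lower and 1 higher at T4, and of the 8 T cell markers 1 was higher. For 5 platelet markers it was 2.20 to 3.16 in mock T4, 0.33 to 1.38 after PMA-Ionomycin at T4 and -0.22 to 0.36 in mock T24, with 4 of 5 lower both after PMA-Ionomycin at T4 and in mock at T24. The mean of 6 neutrophil markers was 3.63 to 5.48 in mock T24 and 2.17 to 2.91 after PMA-Ionomycin, and 3 of 6 were lower. At T24, 2 of the 5 platelet markers were higher after PMA-Ionomycin than in mock samples and 0 lower. A single NK cell marker was measured, which was lower after PMA-Ionomycin at T4 (log2 fold change -0.76) and higher at T24 (0.96), and of 3 erythrocyte markers 1 was lower. The part of these changes in the results above was not tested.

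Over the 24 arrays, 51.4 to 62.3% of spots were well above background. Of the 36 genes, 32 were so on all 4 arrays of mock T4 and of PMA-Ionomycin T24, 24 on those of PMA-Ionomycin T4 and 21 on those of mock T24. The arrays lay on 3 slides, each with all 6 groups. Within slides 1, 2 and 3 the median difference of the 36 genes between PMA-Ionomycin and mock was 2.06, 1.54 and 2.40 at T24 and -1.07, -0.67 and -0.42 at T4, and that between mock T24 and mock T4 was -1.35, -1.33 and -1.28. Between LPS and mock it was -0.37, -0.14 and 0.10 at T4 and 0.16, 0.21 and 0.47 at T24. The PMA-Ionomycin and mock samples of a time on a slide came from different rabbits, and so did most of LPS and mock. Those differences within slides therefore include differences between rabbits. Within rabbits 1, 2, 4 and 5 the median difference between PMA-Ionomycin and mock was 2.11, 1.83, 2.29 and 1.76 at T24 and -0.85, -0.86, -0.68 and -0.77 at T4. Between LPS and mock it was -0.12, -0.04, 0.04 and -0.33 at T4 and 0.18, 0.28, 0.16 and 0.44 at T24.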

How the data were processed

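PBMCs of 4 rabbits were measured on 24 arrays. For each array the authors deposited scanner output (Feature Extraction 10.7.3.1, per the submitters' processing notes), in which the median signal is a spot intensity that was not scaled between arrays. They also deposited log2 values, found here to be the log2 median signal after subtraction of an array's mean over its spots, which served as an alternative.

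As in the study's methods, the log2 median signal of each of 61657 spots was centred on the array median and probes were averaged per gene. Spots marked as outliers were left out here, and spots of a probe were averaged first. Group means were fitted over the 24 arrays in limma 3.58.1 (lmFit, eBayes; R 4.3.3). Figures were drawn with matplotlib 3.10.9. Probes were named by RefSeq accession, gene number or gene name of the file, and 21590 of 42089 probes kept an identifier. The fit was tested on simulated data.

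The genes, lists and comparisons were chosen with earlier results of these data known. Named genes are, in each role, the 2 with the smallest adjusted p at T24 after PMA-Ionomycin (3 in roles of over 7 listed genes), with CCNB1, NCAPG, CDK1, MKI67 and the genes called lower at T24. Genes named beyond this rule, such as CDC20, AURKA, PLK1, HMGB2 and BUB1, were named after their values were seen. Alternatives were the deposited table, the processed signal (each array scaled by its 75th percentile), quantile normalization alone or after normexp (offset 50), leaving out dim probes, keeping outlier spots, fitting the compared arrays alone, a block for rabbit, a block for slide, trend and robust eBayes, a log2 change of at least 1, single probes and leaving out each rabbit.

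Samples with the same rabbit number came from the same animal and are therefore paired. Deviations from group means had a median correlation of 0.228 within a rabbit (60 pairs) and -0.0755 between rabbits (180 pairs). Rabbits are separate animals, and the number of arrays limits the precision.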

Additional observations from a re-analysis of the deposited data

Results flagged for a closer look

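The change after PMA-Ionomycin differed between T4 and T24 for 31 of the 36 genes, by the interaction of stimulation and time. In 126 groups of 4 samples, 21 named genes in 6 groups, 5 held a sample far from the other 3, and chance gives about 1 in 20. The ratio of its gap to the whole range was 0.847 for CDK1 in mock T4, where rabbit 1 had 4.32 and the others 3.17 to 3.35. It was 0.845 for CDK1 after LPS at T4, where rabbit 1 had 3.93 and the others 3.44 to 3.51. For NUF2 after LPS at T24 it was 0.948, rabbit 5 having 0.57 and the highest of the others 0.03. For NUSAP1 in mock T24 it was 0.832, with 0.30 in rabbit 5 and 0.88 to 1.00 in the others. For KIF20B in mock T24, where it was well above background on 1 of 4 arrays, the ratio was 0.881, with -0.28 in rabbit 2 and -0.05 to -0.02 in the others. The cause was not tested.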

How the results depend on the processing

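Counts of the 36 genes called stayed within 1.5 times the reported count, except as follows, and the cause was not tested. With the rabbit as replicate block, the paired fit, genes called were 4 instead of 0 for LPS at T4, 1 instead of 0 for LPS at T24 and 9 instead of 0 for the interaction of LPS and time. That interaction had 1 called gene without dim probes and 1 with single probes. A required log2 change of at least 1 left 11 of 26 genes for PMA-Ionomycin at T4, 7 of 19 for PMA-Ionomycin against LPS at T4 and 12 of 20 for PMA-Ionomycin T24 against mock T4. This last comparison had 11 after quantile normalization, 12 from the processed signal and 13 after normexp. Leaving out 1 rabbit gave 17 to 22 genes for PMA-Ionomycin at T4 and 12 to 22 for PMA-Ionomycin against LPS at T4, the lowest without rabbit 4 in both. It gave 31 to 32 for PMA-Ionomycin at T24, against 34. Over the named genes, results called in the reported fit were recomputed under each alternative, which gave 2304 results. Of these, 2180 kept direction and call, 124 kept direction and lost the call, and 0 changed direction. Results not called in the reported fit, among them all of LPS against mock, were not included. The processed signal moved the median log2 change of all genes by -0.37 to 0.16 over the comparisons (-0.29 for PMA-Ionomycin at T24). Without HMGB2, ECT2 and UBE2C, an alternative chosen after the data were seen, 31 of 33 genes were called at T24. Signal over background limits CDC25C, CENPE and PSRC1, which were well above background on 0, 2 and 2 of 24 arrays.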

Other observations

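Listed genes without a probe under their symbol may still be present under another identifier. A probe that the files describe as ANP32E, a histone chaperone, and whose gene number has no symbol in the RefSeq table, had a log2 fold change of 2.28 (SE 0.20, limma adjusted p = 2.41e-09) for PMA-Ionomycin against mock at T24 and of 0.14 (SE 0.20, adjusted p = 0.774) at T4. A transcript that the files describe as similar to CDC28 protein kinase 1B, measured by 5 probes, had 2.04 (SE 0.40, adjusted p = 0.000263) at T24 and 0.27 (SE 0.40, adjusted p = 0.794) at T4. Both were chosen after their values were seen and entered no count.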
